A study of Arabidopsis thaliana with 60 samples.

Results

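Chromosome 4 of Arabidopsis thaliana was followed gene by gene in a single triploid plant, BT02, whose chromosome 4 transcripts stood above those of its sister plants. The members were all genes with identifiers starting AT4G and a mean normalized count of at least 50 over 15 plants. This left 2463 of the 3236 chromosome 4 genes listed, among 16208 nuclear genes that passed the same minimum. For each gene the difference was taken between log2(normalized count + 1) in BT02 and the mean of the same value in the 4 other plants of its group, BT01, BT03, BT04 and BT05. This log2 difference was set against 0, no change, and against log2(4/3) = 0.415, the step from 3 to 4 equal copies. The plant and the chromosome were chosen for a raised median, so the difference is given as a description without a test. BT02 is 1 plant and has no replicate of its own.

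The plants came from 3 kinds of cross, with 5 plants each and 4 technical replicates per plant that the authors had combined. All mothers carried the ein3-1 mutation. Biparental triploids (BT, 3n) came from a 2n mother and a tetraploid pollen donor, triparental triploids (TT, 3n) from egg cells that received sperm of 2 pollen parents after double pollination, and biparental diploids (BD, 2n) from a 2n mother and a diploid pollen donor. The BT and BD fathers carried pRPS5a::mGAL4-VP16 and pUAS::BAR-YFP, both written with /- in the labels, and all seeds had been selected on glufosinate at 25 mg per l. Aerial tissue was taken 18 days after sowing from plants grown under 16 hours of light, and ploidy had been assessed the day before on nuclei, which does not give the copy number of single chromosomes.

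A plant that carries 1 chromosome more or less than a full set is called aneuploid, and triploid and tetraploid parents are well known to pass on unequal chromosome sets. In yeast, flies and maize, transcripts of an added chromosome broadly follow its copy number, and genes that do not are called dosage compensated. In yeast, subunits of large complexes such as the ribosome are often adjusted after transcription, by loss of the surplus protein. Whether BT02 carried an added chromosome 4 was not tested, since no DNA of these plants was measured.

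Promoters are shown for 4 members at different places in the pattern. PHR1, a regulator of the phosphate starvation response, lay near log2(4/3), and PSAD-1, a subunit of photosystem I, lay beyond it. The 2 genes of the large ribosomal subunit, AT4G27090 (protein L14) and AT4G31985 (protein L39), lay below 0. Each is the 250 bases before the annotated gene start in TAIR10.1, written 5′ to 3′ on the strand of the gene. Capitals mark the site II element TGGGCC, the telo-box AAACCCTA and the I-box GATAAG, searched on both strands. These and the G-box CACGTG are the motifs searched, and TGGGCC can share bases with its reverse complement GGCCCA.
PHR1 (chr4:14135293-14135542, minus strand): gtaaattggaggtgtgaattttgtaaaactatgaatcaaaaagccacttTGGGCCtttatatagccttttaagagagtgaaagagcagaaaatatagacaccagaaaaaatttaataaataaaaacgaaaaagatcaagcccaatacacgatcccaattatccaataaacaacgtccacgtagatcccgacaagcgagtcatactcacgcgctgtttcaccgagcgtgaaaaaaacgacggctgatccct
PSAD-1 (chr4:1230165-1230414, minus strand): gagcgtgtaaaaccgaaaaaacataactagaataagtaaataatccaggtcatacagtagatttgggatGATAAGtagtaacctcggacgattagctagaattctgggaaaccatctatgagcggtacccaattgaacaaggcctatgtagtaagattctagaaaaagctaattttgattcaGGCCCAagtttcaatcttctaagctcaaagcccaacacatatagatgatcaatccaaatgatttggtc
AT4G27090 (chr4:13595253-13595502, minus strand): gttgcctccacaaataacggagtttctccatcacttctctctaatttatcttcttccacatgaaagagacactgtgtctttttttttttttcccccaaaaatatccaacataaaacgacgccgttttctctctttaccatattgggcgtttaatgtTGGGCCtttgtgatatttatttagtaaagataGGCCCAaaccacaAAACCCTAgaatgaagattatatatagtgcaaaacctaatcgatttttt
AT4G31985 (chr4:15469591-15469840, plus strand): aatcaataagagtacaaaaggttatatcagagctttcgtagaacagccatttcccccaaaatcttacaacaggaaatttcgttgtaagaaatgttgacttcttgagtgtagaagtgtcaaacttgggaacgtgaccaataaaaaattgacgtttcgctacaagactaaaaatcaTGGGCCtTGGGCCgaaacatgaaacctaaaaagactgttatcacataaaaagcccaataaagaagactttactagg

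Site II and the telo-box are known from promoters of ribosomal protein genes in plants, and the I-box and G-box from light-regulated genes. Site II was present in 18.0% of the 2463 members' promoters, beside 18.3% of all 16207 nuclear promoters read. The telo-box was in 3.61% of members and 3.63% of all. Among the 821 members that varied least between the other 14 plants, the 40 with a difference at or below 0 held site II in 18 promoters and the telo-box in 7, and the 781 with a difference above 0 held them in 159 (20.4%) and 25 (3.20%). Ribosomal protein genes made up 13 of the 40. Of the 42 ribosomal protein genes among the members, 18 (42.9%) held site II and 9 the telo-box. Off chromosome 4, 44.6% of the 307 ribosomal protein genes held site II and 13.7% the telo-box. Of the 19 members of the photosystem list, 8 (42.1%) held site II and 1 the telo-box. Of all 340 members at or below 0, 20.6% held site II and 6.18% the telo-box. The motif counts describe these windows only.

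The chromosome moved as a block. The median log2 difference of the 2463 members was 0.39, a ratio of 1.31, with quartiles of 0.17 and 0.60. The 13745 other nuclear genes had a median of -0.05, with quartiles of -0.29 and 0.17, so members stood 0.44 above them. The widths of both distributions were alike, with an interquartile range of 0.433 for members and 0.465 for the other genes. In the plot of differences the whole distribution of the members lies to the right.

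**Figure D1:**
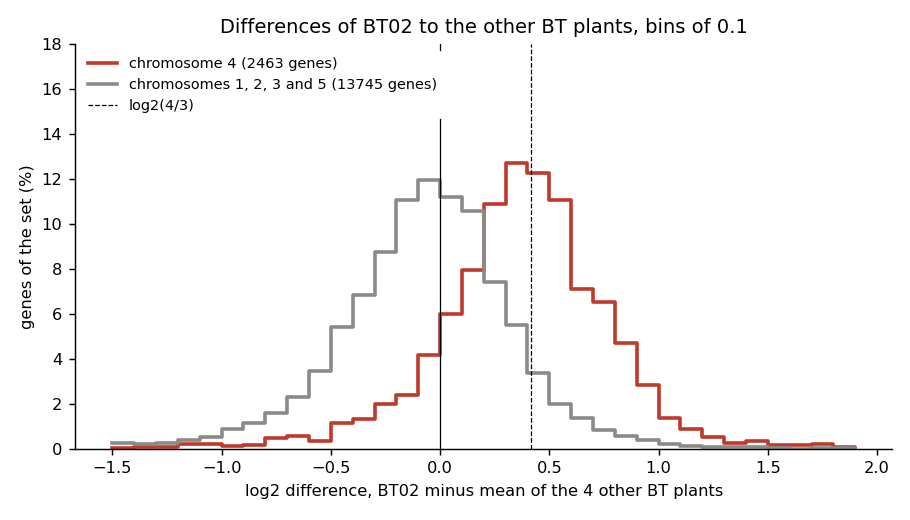
Share of genes (%) in bins of 0.1 of the log2 difference between BT02 and the mean of the 4 other BT plants, for 2463 chromosome 4 genes (red) and 13745 genes of chromosomes 1, 2, 3 and 5 (grey). The members' median is 0.39 and that of the other genes -0.05, and 15 members and 150 other genes lie outside the range drawn.

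Most members followed the step and few lay at or below 0. A difference of at least 0.208, the midpoint between no change and log2(4/3), was found in 1756 members (71.3%) and in 21.5% of the other nuclear genes, and in 29.0% of all nuclear genes together. Of the members, 1174 (47.7%) lay between this midpoint and 0.623, which is 1.5 times log2(4/3), and 582 (23.6%) lay higher. A further 367 (14.9%) lay between 0 and the midpoint. At or below 0 lay 340 members (13.8%), against 56.1% of the other nuclear genes and 49.7% of all nuclear genes.

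BT02 was above all 4 other BT plants for 1589 members (64.5%), against 16.5% of the other nuclear genes and 23.8% of all nuclear genes. It was above all 14 other plants for 1153 members (46.8%), against 3.79% of the other genes and 10.3% of all. It was below all 4 other BT plants for 83 members (3.37%), where all nuclear genes gave 22.3%. It was the lowest of the 15 plants for 11 members, or 0.447%, where all nuclear genes gave 8.55%. The choice of BT02 fixed the direction of these counts.

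The difference was of like size against each group. Against the BD plants the median of the members was 0.35 with quartiles of 0.19 and 0.52, and against the TT plants it was 0.35 with quartiles of 0.22 and 0.49. The number at or below 0 was 239 (9.70%) against BD and 132 (5.36%) against TT, fewer than against the 4 BT plants. At or below 0 against all 3 groups were 71 members (2.88%) and 40.1% of the other nuclear genes. At or above the midpoint against all 3 groups were 1433 members (58.2%) and 6.77% of the other nuclear genes.

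In no other plant did chromosome 4 stand apart upward. Set against the rest of their own group, the medians of the members were -0.08 in BT01, -0.07 in BT03, -0.06 in BT04 and -0.16 in BT05, each against a mean that includes BT02. The TT plants lay between -0.02 and 0.03, and the BD plants between -0.02 and 0.01. Chromosome 4 held 18.2% of the nuclear normalized counts in BT02 and 13.3% to 14.5% in the other 14 plants.

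**Figure D2:**
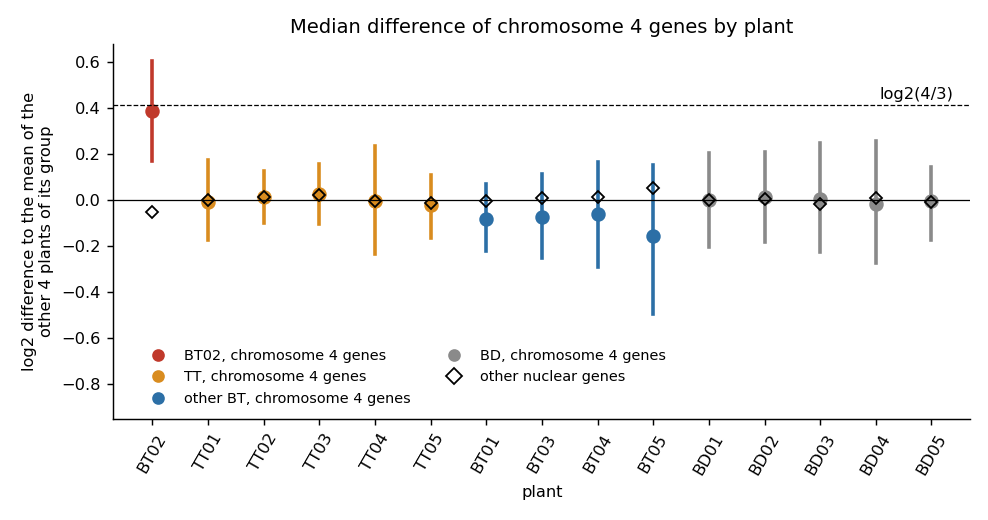
Median (points) and quartiles (bars) of the log2 difference of 2463 chromosome 4 genes between each plant and the mean of the other 4 plants of its group, with the median of the other nuclear genes as open diamonds. BT02 stands at 0.39, and the other 14 plants lie between -0.16 and 0.03.

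The recovered depth was 19534646 to 30756482 reads per plant, with 27325909 in BT02, and no molecular identifiers were used, so it sets counting error alone. Reads that fit up to 50 places had been kept, so values of gene families are less certain. BT05, one of the reference plants, stood apart itself, with a median of 0.36 for chromosome 5 against the rest of its group, -0.09 for chromosome 2 and -0.08 for chromosome 3. Without it the members' median in BT02 was 0.37 and the gap to the other nuclear genes 0.41. EIN3 (AT3G20770, chromosome 3), the transcription factor of the ethylene response whose mutant allele all plants inherited, had 1939 normalized counts in BT02, against 1733, 1633, 1523 and 1906 in BT01, BT03, BT04 and BT05, and BT02 was the highest of the 15 plants. LHCB5, an antenna protein of photosystem II, had at least 62718 normalized counts in every plant, as green tissue has.

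The members that varied least over the other 14 plants had a narrow spread of differences, which that choice itself favours. The 10 members with the smallest SD over the other 14 plants lay between 0.29 and 0.49, and in all 10 BT02 was above every other plant. Choosing genes by a small SD favours this count as well. All members gave 46.8% above the other 14 plants, and the 821 least variable gave 68.6%. LCB1 (AT4G36480), a subunit of serine palmitoyltransferase in sphingolipid synthesis, had 782 normalized counts in BT02, against 647, 628, 635 and 609 in BT01, BT03, BT04 and BT05. Its counts in the 10 TT and BD plants had a lowest value of 582, a median of 638 and a highest of 666. The log2 difference was 0.31.

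PHR1 (AT4G28610) had 1358 normalized counts in BT02, against 968, 994, 1025 and 1053 in the same 4 plants, and 952, 1023 and 1099 as the lowest, median and highest of the TT and BD plants. BSK3 (AT4G00710), a kinase of brassinosteroid signalling, had 1497 in BT02, against 1063, 1119, 1069 and 1106, and 1041, 1148 and 1195 in the TT and BD plants. The differences were 0.43 for PHR1 and 0.46 for BSK3, and neither gene's BT02 value was within the range of the other plants. MTN1 (AT4G38800), which recycles methylthioadenosine, had 2366 in BT02, against 1806, 1846, 1757 and 1874, with 1736, 1869 and 1997 in the TT and BD plants.

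AT4G02580, the 24 kDa subunit of mitochondrial complex I, had 2730 normalized counts in BT02, against 2205, 2124, 2003 and 2111. It is a single subunit of a large complex and its difference was 0.37. UKL4 (AT4G26510, a uridine kinase-like protein) lay at 0.49, AT4G12230 (an alpha/beta hydrolase) at 0.48, AT4G40050 at 0.43, AT4G23860 (a PHD finger protein) at 0.40 and AT4G32560 at 0.29.

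**Figure D3:**
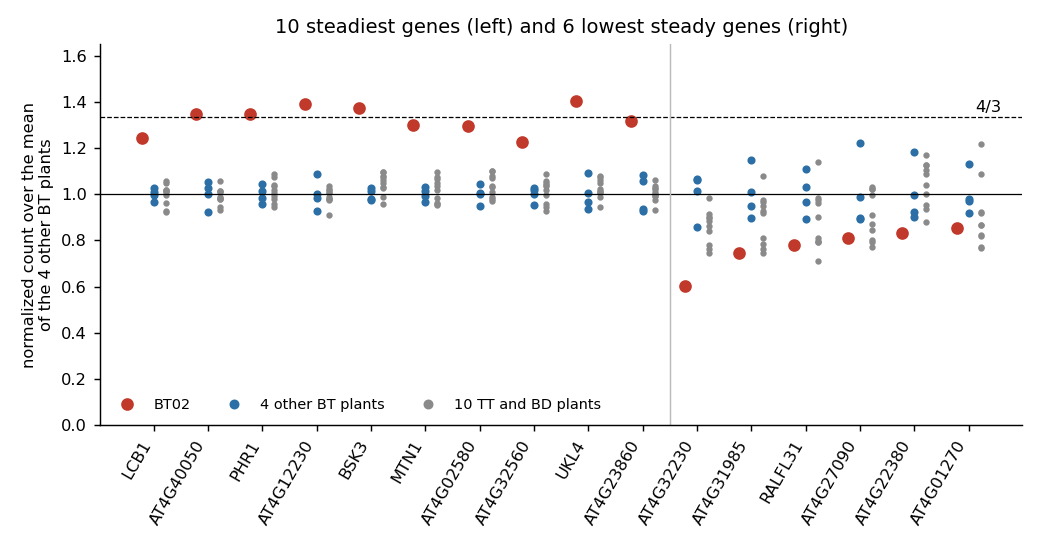
Normalized count divided by the mean of the 4 other BT plants for the 10 members with the smallest SD over the 14 plants other than BT02 (left) and the 6 members with the smallest difference among the 821 least variable (right), with BT02 in red, the 4 other BT plants in blue and the 10 TT and BD plants in grey. On the left every red point lies above all others, and on the right every red point lies below the 4 blue points.

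Over the 821 least variable members, those with an SD up to 0.203, the median was 0.37 with quartiles of 0.23 and 0.49. The interquartile range was 0.260, and 40 (4.87%) lay at or below 0. The 4308 other nuclear genes as steady had a median of -0.06 and an interquartile range of 0.290. The remaining 1642 members had a median of 0.42, with 300 (18.3%) at or below 0. In the decile of the members that varied most, the median was 0.04 with quartiles of -0.43 and 0.71, and 117 of 247 lay at or below 0. The 1475 other nuclear genes as variable as these had a median of -0.37, so the gap between the chromosomes was 0.41. It was also 0.41 in the steadiest decile, and in the deciles between these 2 it ran from 0.42 to 0.54.

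Over deciles of the members ranked by mean count in the other 14 plants, the median ran between 0.37 and 0.44, with 0.44 in the lowest decile and 0.39 in the highest. With no minimum count the medians spanned 0.221, against 0.0774 here. The gap to other nuclear genes of the same level ran between 0.41 and 0.46. The share at or below 0 was 18.2% in the lowest decile, 6.91% in the eighth decile and 16.2% in the highest.

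Gene length and GC content went with the size of the difference, on chromosome 4 and off it. The median of the members was 0.30 in the decile with the shortest genes and 0.57 in the decile with the longest, where 4 of 247 lay at or below 0. The other nuclear genes ran in parallel, with -0.21 in the shortest and 0.13 in the longest, so the gap was 0.51 and 0.44. By GC content, the median was 0.27 in the lowest decile and 0.55 in the highest, and that of the other genes -0.19 and 0.13. Members at or below 0 had a median gene length of 1943 bases, and those above 0 of 2636 bases. The part of length and GC content in the difference of single genes was not tested.

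The raised level ran from end to end. In the order of the identifiers, the 49 windows of 50 members all had a median above 0, from 0.26 for AT4G23130 to AT4G23870 up to 0.56 for AT4G32330 to AT4G32920. The first window had 0.44 and the last 0.35. The widest stretch with no member, 754697 bases in TAIR10.1, lies between AT4G05590 and AT4G06598. The 331 members before it had a median of 0.37 and the 2132 after it 0.39, and so both sides were raised alike.

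**Figure D4:**
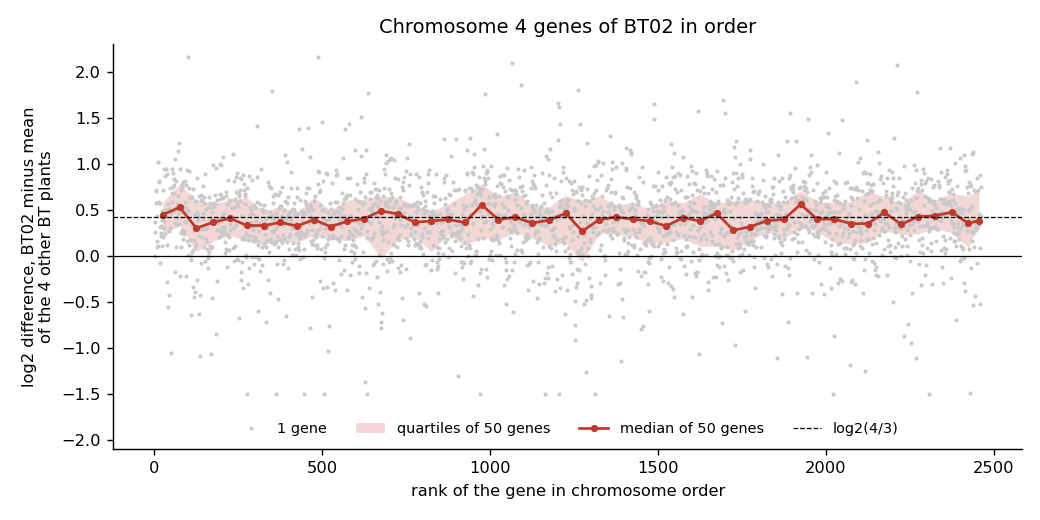
Log2 difference between BT02 and the mean of the 4 other BT plants for 2463 chromosome 4 genes by rank in chromosome order (grey points, with 11 lower values drawn at -1.5), and median (red line) and quartiles (band) of each 50 genes in turn. Every median lies above 0, and they stay between 0.26 and 0.56 over the chromosome.

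Of 246 windows of 10 members, 2 had a median at or below 0. The lower, at -0.22, runs from AT4G23130 to AT4G23250 and holds 9 genes with CRK symbols or products and EP1, from a cluster of genes for cysteine-rich receptor-like kinases, which are induced in defence. Neighbours in this cluster went opposite ways. CRK7 lay at -0.91, CRK6 at -0.75 and CRK8 at -0.50, and beside them CRK10 at 0.69, CRK11 at 0.70 and, just outside the window, CRK21 at 1.80. The first 3 varied widely and lay above 0 against the TT plants (CRK7 at 0.45, CRK6 at 0.28 and CRK8 at 0.71). The SD over the other 14 plants was 1.38 for CRK6, 0.81 for CRK21 and 0.32 for CRK10. CRK21 lay at 1.21 without BT05 and at 0.78 against TT. The longest run of neighbours at or below 0 was 5 genes, from AT4G26210 to AT4G26288.

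The most abundant genes for photosynthesis lay beyond the step. The 6 most abundant members belong to photosynthesis and photorespiration: LHCB5, PSAL and PSAD-1 (subunits of photosystem I), PSBQA (an extrinsic subunit of photosystem II), FBA2 (a plastid aldolase of the Calvin cycle) and SHM1 (the mitochondrial serine hydroxymethyltransferase of photorespiration). LHCB5 had 263381 normalized counts in BT02, against 115214, 156738, 170573 and 62718 in BT01, BT03, BT04 and BT05, and 110542, 159528 and 194109 as the lowest, median and highest of the TT and BD plants. BT02 was its highest plant and BT05 its lowest. The difference was 1.16, and 0.86 without BT05.

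PSAD-1 had 99049 normalized counts in BT02, against 47343, 59763, 61244 and 28185 in the same plants, a difference of 1.08, or 0.83 without BT05. FBA2 lay at 1.01, PSAL and SHM1 at 0.84 each and PSBQA at 0.81, and in all 6 genes BT02 was above the other 14 plants. Of the 19 members in a list of photosystem, antenna, thylakoid electron transfer and ATP synthase genes, 14 were above all 4 other BT plants, where all members gave 64.5%, and the median was 0.59, or 0.42 against BD and 0.41 against TT. Below log2(4/3) lay 6 of the 19. CURVATURE THYLAKOID 1D-like AT4G38100, at -0.30, was the 1 member of the list at or below 0.

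The same list off chromosome 4 was high as well. The 83 genes of this list on chromosomes 1, 2, 3 and 5 had a median of 0.27, so the members stood 0.32 above them. Without BT05 the members' median was 0.42 and the gap 0.31. In bulk tissue fewer or more cells of a type and a change in RNA per cell cannot be told apart.

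The genes with ribosomal protein in their product name, of the cytosol and the organelles pooled, were not raised as a list. The match takes in family names such as that of AT4G26060 (L18ae family). Of 42 members, 24 lay at or below 0, where all members gave 13.8%. The median was -0.02, with a range of -0.77 (AT4G26060, -0.38 without BT05 and 0.36 against TT) to 0.73. AT4G31985 (L39) had 3409 normalized counts in BT02, against 4339, 4614, 5259 and 4102, a difference of -0.42. AT4G27090 (L14) had 13409 in BT02, against 14791, 16368, 20252 and 14863, a difference of -0.29. Both were below all 4 other BT plants, and AT4G31985 was also below the 10 TT and BD plants, whose lowest value was 3419.

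Genes for ribosomal proteins off chromosome 4 were lower still. The 307 on chromosomes 1, 2, 3 and 5 had a median of -0.43, with 273 (88.9%) at or below 0. The members on chromosome 4 stood 0.42 above them, as far as the chromosome as a whole stood above the rest. This gap was 0.39 without BT05, 0.41 against BD and 0.38 against TT. The highest were AT4G21460 (S24/S35, 0.73), AT4G01310 (L5P, 0.52), AT4G39880 (L23/L15e family, 0.36) and AT4G31460 (L28, 0.33). SSR16 (AT4G34620), the most abundant, had 21423 normalized counts in BT02, against 22699, 30039, 36357 and 18824, within the range of the others.

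The other lists likewise stood above their counterparts elsewhere. Over the 13 lists with at least 6 members and with genes elsewhere, the medians on chromosome 4 ran between -0.02 and 0.68, and those on the other chromosomes between -0.43 and 0.27, while the gap between them ran between 0.32 and 0.60 with a median of 0.42. The ribosomal proteins were lowest both on chromosome 4 and elsewhere, and the photosystem and cell wall lists were highest elsewhere and among the highest 3 on chromosome 4. The plot of gene lists shows both values.

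**Figure D5:**
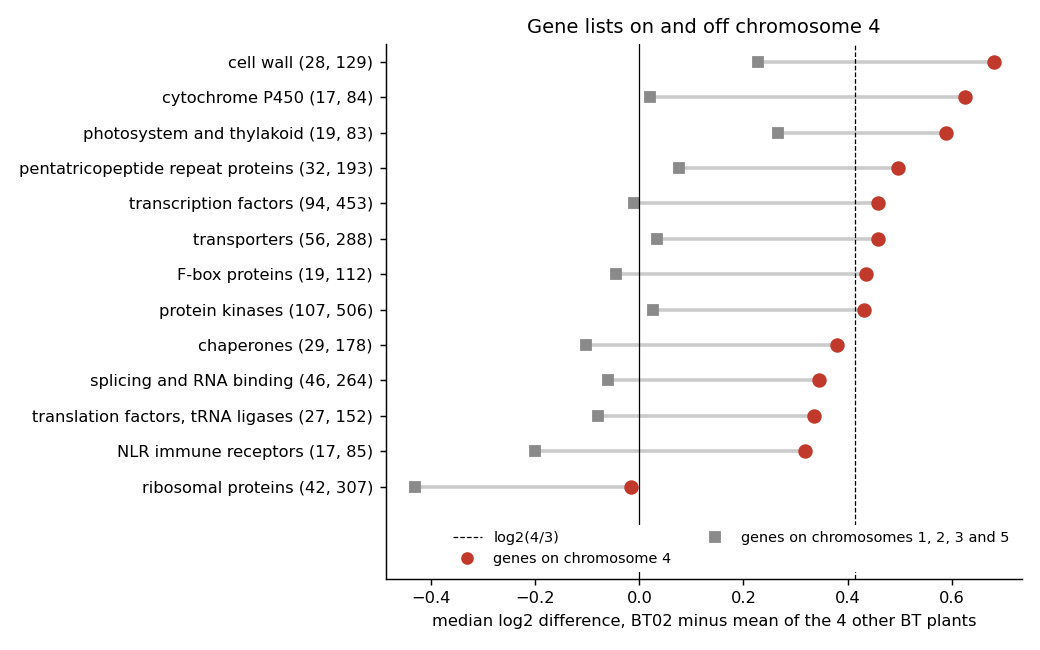
Median log2 difference between BT02 and the mean of the 4 other BT plants for the genes of 13 lists on chromosome 4 (red circles) and on chromosomes 1, 2, 3 and 5 (grey squares), with the number of genes on and off chromosome 4 in brackets. In every list the red circle lies to the right, by 0.32 to 0.60, and the ribosomal proteins have both the lowest red circle (-0.02) and the lowest grey square (-0.43).

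Among regulators, the 107 protein kinases had a median of 0.43 and the 94 transcription factors of 0.46. At or below 0 lay 20 and 14 of them, where all members gave 13.8%. The same lists off chromosome 4 had medians of 0.03 and -0.01. AT4G15545, annotated as a pH-response transcription factor and the most abundant of its list, lay at 0.77 and GATA9 at 1.49, and ERF-1, an ethylene response factor, at -1.31, or -0.23 against TT. Of the flowering and light regulators, 7 of 8 were above all 4 other BT plants, where all members gave 64.5%. Their median was 0.54, or 0.41 against BD and 0.31 against TT. This list has no genes off chromosome 4 to set beside it. CRY1 (AT4G08920), the blue light receptor cryptochrome 1, had 5001 normalized counts in BT02, against 2867, 3064, 3387 and 3085, a difference of 0.69. PHYE (phytochrome E, a red light receptor) lay at 0.88 and FCA, a repressor of the flowering repressor FLC, at 0.49. AGL24, a MADS box promoter of flowering, lay at -0.66 and was the exception.

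Among the lists with at least 6 members, no F-box protein and no pentatricopeptide repeat protein lay at or below 0, where all members gave 13.8%. The 19 F-box proteins, which choose targets for ubiquitin ligases, lay between 0.06 (SLY1, of gibberellin signalling) and 0.80 (VFB3), with a median of 0.43. The 32 pentatricopeptide repeat proteins, which process organelle RNA, lay between 0.09 (AT4G31070) and 1.05 (MEF29), with a median of 0.50. MRL1, the most abundant, which stabilizes the rbcL transcript, lay at 0.63, with 4155 normalized counts in BT02 against 2938, 2792, 2756 and 2319. Its difference was 0.31 against BD and 0.16 against TT. Off chromosome 4 the medians of the 2 lists were -0.05 and 0.08. The gaps were thus 0.48 and 0.42, beside a median gap of 0.42 over the 13 lists.

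Among immune receptors of the NLR class, 1 of 17 lay at or below 0, where all members gave 13.8%. Their median was 0.32, and the 85 off chromosome 4 had a median of -0.20. RLM3 lay at 0.63, AT4G19530 at 0.88 and AT4G14370 at -0.72. Against BD and TT, RLM3 lay at 0.62 and 0.58, and AT4G19530 at 0.32 and 0.20. Without BT05 AT4G14370 lay at -0.43, without BT04 at -1.14 and against TT at 0.13. The 17 cytochrome P450 genes had a median of 0.63, and 13 were above all 4 other BT plants, where all members gave 64.5%. CYP83A1, of glucosinolate synthesis, had 14519 normalized counts in BT02, against 7658, 10226, 10332 and 5950, a difference of 0.80. CYP81F4 lay at 1.78. CYP81D8 lay at -1.11, which was -0.74 without BT05 and 0.21 against TT.

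The 28 cell wall genes had a median of 0.68, which was 0.55 without BT05, 0.42 against BD and 0.36 against TT, and 129 such genes elsewhere had 0.23. CESA1, a catalytic subunit of cellulose synthase, had 10369 normalized counts in BT02, against 6459, 4820, 5976 and 4380, a difference of 0.96. FLA2 lay at 1.37. Against TT, CESA1 lay at 0.52 and FLA2 at 0.55. The 56 transporters had a median of 0.46, with UMAMIT17 at 1.79 and LHT7 at -1.25 (-0.77 without BT05, -1.92 without BT04 and 0.12 against TT), and the 29 chaperones one of 0.38, with J20 at 1.15 and SHD, the endoplasmic reticulum chaperone, at -0.30. SHD lay at -0.00218 without BT05 and at 0.32 against TT. The 27 translation factors and tRNA ligases had a median of 0.34, from AT4G27130 at -0.13 to emb2726, a plastid elongation factor, at 0.73. Against TT, AT4G27130 lay at 0.13 and emb2726 at 0.26. The 46 genes for splicing and RNA binding had a median of 0.35, from AT4G18372 at -0.32 to AT4G18375 at 0.72, with RBP31 of the chloroplast, the most abundant, at 0.69.

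The small lists had 5 members or fewer. All 5 genes of the Calvin cycle and chlorophyll synthesis lay between 0.30 (hemf2) and 1.01 (FBA2), and all 5 aquaporins between 0.50 (PIP1;4) and 1.44 (PIP1;5), with PIP3 at 0.59. The 4 proteasome subunits lay between -0.05 (PBD2) and 0.70 (RPN1B), with AT4G24820 (Rpn7) at 0.23, and the 3 histone genes between 0.08 (AT4G40040) and 0.37 (AT4G40030). Of the cold response factors, CBF2 lay at 1.13, with 203 normalized counts in BT02 against 68.05, 298, 102 and 34.6, so that BT03 was higher, and its difference was 0.66 without BT05. The 1906 members in no list had a median of 0.38, with 253 at or below 0, where all members gave 13.8%.

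BT02 was the lowest of all 15 plants for 11 members. Among these 11 genes were COW1 (a phosphatidylinositol transfer protein of root hairs), HMA3 (a metal pump of the vacuole), KELP (a transcriptional coactivator), AT4G32230 and AGL24. NDPK1 (a nucleoside diphosphate kinase), AT4G22755 (a methylsterol monooxygenase of sterol synthesis) and AT4G00525 were others. The rest were AT4G14320, AT4G31985 and AT4G22380 of the ribosomal protein list, whose genes off chromosome 4 had a median of -0.43. The 11 genes ranged between -1.19 for COW1 and -0.26 for AT4G22380. COW1 had 87.7 normalized counts in BT02, against 127, 331, 256 and 151 in BT01, BT03, BT04 and BT05. NDPK1 had 10079 in BT02, against 12925, 17544, 21170 and 13185, a difference of -0.65. These genes were picked after their values were seen, as the 11 that meet this criterion.

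Among the 821 least variable members the lowest were AT4G32230 at -0.72, AT4G31985 at -0.42, RALFL31, a RALF-like peptide, at -0.35, AT4G27090 at -0.29, AT4G22380 at -0.26 and AT4G01270, a RING/U-box protein, at -0.23. AT4G32230 had 169.6 normalized counts in BT02, against 286, 300.4, 299.6 and 242, and 209.9, 246 and 277 as the lowest, median and highest of the TT and BD plants. Every other plant was above BT02. The annotation lists it as uncharacterized. Against the TT plants RALFL31 lay at -0.07 and AT4G01270 at 0.01. At or below 0 against all 3 groups were 10 of the 821, and 14 of the 42 ribosomal protein genes, where all members gave 2.88%.

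The 5 lowest members of all were OSM34, ELI3-2, AT4G22510, AT4G10500 and CSLG2, chosen by their values, and all but AT4G22510 differed widely among the other BT plants. OSM34 (AT4G11650), an osmotin-like defence protein, had 1.91 normalized counts in BT02, against 110.1, 122, 2.93 and 328 in the 4 BT plants, and 0.960, 4.76 and 5343 as the lowest, median and highest of the TT and BD plants. Its difference of -4.48 was -1.18 against the TT plants. ELI3-2, a defence-related alcohol dehydrogenase, lay at -3.11 and AT4G22510, an uncharacterized protein, at -2.51. AT4G10500, an oxygenase known from salicylic acid turnover, lay at -2.50, which was -1.36 without BT05 and -3.84 without BT04. CSLG2, of the cellulose synthase-like family, lay at -2.07, which was -1.17 without BT05 and -3.42 without BT04. In none of the 5 was BT02 the lowest of the 15 plants.

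The 5 highest were AT4G11290 (a peroxidase) at 2.16, AT4G01390 (a TRAF-like protein) at 2.15, AAH (allantoate amidohydrolase, of purine breakdown) at 2.10, RL3 (a RADIALIS-like MYB protein) at 2.08 and AT4G34770 (a SAUR-like auxin response gene) at 1.89. RL3 had 245 normalized counts in BT02, against 61.0, 76.5, 84.9 and 27.0, and 43.9, 64.6 and 131 in the TT and BD plants. In all 5 genes BT02 was the highest plant and BT05 the lowest of the BT plants.

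At the minimum count, the members just inside were AT4G00525, with a mean of 50.1 normalized counts and a difference of -0.56, and HMA3, with 50.2 and -0.97. Just outside were AT4G01200, at -0.06, and AT4G19950, at 0.72. The 773 chromosome 4 genes under the minimum had a median of 0.38 with quartiles of -0.16 and 0.83, so the shift was of the same size and the spread wider.

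The study compared whole groups, to ask whether ploidy or the mode of fertilization changes transcript levels. Across all 21450 genes, limma with Benjamini-Yekutieli adjustment called 0 genes (0%) between BT and BD, 0 (0%) between TT and BT and 0 (0%) between TT and BD, and edgeR and DESeq2 on the recovered reads also called 0 in each. At an unadjusted p under 0.05, 22 members differed between BT and BD, where all genes gave 1.73%, 281 between TT and BT, where all genes gave 9.41%, and 45 between TT and BD, where all genes gave 2.40%. Of the 281, 258 were lower in TT, and of the 22, 19 were higher in BT.

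The direction of these counts turned round without BT02. Then, 446 members differed between TT and BT at an unadjusted p under 0.05, 270 of them higher in TT, and 48 between BT and BD, 37 of them lower in BT. These were 18.1% and 1.95% of the members, where all genes without BT02 gave 15.3% and 2.33%. The median log2 difference of the members over TT and BT was -0.04 with BT02 and 0.04 without, and over BT and BD it was 0.05 with BT02 and -0.03 without. Between TT and BD, groups that do not hold BT02, it was 0.00.

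By the smallest unadjusted p, the members that led these comparisons each had an adjusted p of 1 in limma. In TT, CRF2 (a cytokinin response factor) had 516, 328, 414, 507 and 605 normalized counts, against 216, 500.4, 243, 351 and 112 in BT01 to BT05, a log2 difference of 0.87 with a standard error of 0.33, and the groups overlapped, with BT02 and BT04 above the lowest TT plant. AT4G28080 (a TPR-like protein) had a log2 difference of 0.58, and RHA1A and AT4G14270 were lower in TT by differences of -1.13 and -0.72, without overlap. Between BT and BD, OFP5 had 102, 166, 118, 105 and 120 normalized counts in BT01 to BT05, against 82.8, 64.9, 103, 92.9 and 73.7 in BD, a log2 difference of 0.54 with a standard error of 0.17. BT02 held the highest value here. SERAT3;2 (serine acetyltransferase) and AGL24 were lower in BT by differences of -0.41 and -0.57. Between TT and BD, KAT2 (a guard cell potassium channel) had a log2 difference of 0.64, AT4G22760 of 0.46, SERAT3;2 of -0.63 and AT4G23680 of -1.77.

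In the TT and BD plants, which the choice of BT02 left aside, no difference in the chromosome 4 share of the nuclear counts was detected. The share was 14.3% ± 0.183 in TT and 14.3% ± 0.195 in BD (SD, n = 5 each). The difference of 0.0496 percentage points was smaller than the spread between plants (exact 2-sided permutation test, p = 0.611).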

How the data were processed

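Poly(A) RNA from aerial tissue of 15 plants had been sequenced as unstranded single reads of 60 samples, 4 technical replicates per plant. Per the labels and the study's methods, the authors trimmed reads with Trimmomatic 0.38, aligned them with STAR 2.6.0c to TAIR10 (EnsemblGenomes release 36, up to 2 mismatches and 50 places per read), quantified genes with salmon 0.11.3 and normalized them with DESeq2 1.22. The authors deposited, for 21450 genes and 1 column per plant, normalized counts (a signal, reads divided by a size factor), rlog values (log2 scale) and TPM. Their filter required reads in at least 3 of the 5 plants of at least 1 group.

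The normalized counts were used with a pseudocount of 1, and the log2 scale understates changes of low genes. Whole reads were recovered as multiples of each plant's smallest positive value, and 100.0% of values were whole within 0.001. Groups were compared with limma 3.58.1 in R 4.3.3, trend and moderation, all 15 plants, 2-sided, with a threshold of 0.05. edgeR 4.0.16 and DESeq2 1.42.0 on recovered reads, TPM, rlog values, other pseudocounts and minimum counts, other references, a replicate block and leaving out plants were alternatives. The fits were tested on simulated data. Other steps used Python 3.11.15 with SciPy 1.17.1, pandas 2.3.3, NumPy 2.4.6 and, for plots, matplotlib 3.10.9.

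The plant, the members, the gene lists and the rule for named genes were chosen with earlier results of these data known. Named were the 10 steadiest members, the 6 most abundant, the 5 largest and 5 smallest differences, the 6 smallest among the 821 steadiest, for each list the most abundant and the extremes, 2 genes on each side of the minimum, EIN3, and in each group comparison the 2 members with the smallest p in each direction. One of these is not reported here. The lists come from product names and symbols in the NCBI annotation of TAIR10.1, which matched 21283 genes and all 2463 members, with 1167 symbols. Promoters were read from RefSeq TAIR10.1, whose identity to the TAIR10 of the deposited files was not tested. Group numbers belong to different plants and were not used as pairs. p-values measure the spread between plants, and the labels do not say whether all were grown in 1 experiment.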

Additional observations from a re-analysis of the deposited data

Results flagged for a closer look

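In groups of 5 plants, values were looked at for a plant whose gap to the nearest other exceeded 0.71 of the range of its group, which chance gives in about 1 of 20 groups that were not chosen by their values. Of 105 groups, 23 stood out, but the plant and most of these genes were chosen by their values, so that rate does not apply to this count. BT02 stood out with the chromosome 4 median of 0.39, which chose it, and a share of nuclear counts of 18.2%, against 13.3% to 14.5% in the other BT plants. TT04 had a share of 14.01%, below the 14.34% to 14.44% of the other TT plants.

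Of 33 named genes, 7 stood out upward in BT02 among the BT plants. Their normalized counts in BT02 were 782 for LCB1 (609 to 647 in the others), 1358 for PHR1, 1497 for BSK3, 2366 for MTN1, 2730 for AT4G02580, 335 for AT4G32560 and 245 for RL3. All but RL3 are among the 10 steadiest.

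Among the steady genes in other groups, LCB1 was low in BD05 at 585, AT4G12230 low in BD05 at 641, UKL4 high in BD02 at 1235.4, AT4G40050 high in TT01 at 652 and RALFL31 high in TT04 at 166. The genes with the smallest differences in BT02 stood out high in single plants. BD04 had 5343 normalized counts of OSM34, 500.0 of ELI3-2, 216 of AT4G22510 and 1268 of CSLG2. BT05 had 6416 of AT4G10500 and 314 of CSLG2. TT02 had 47.6 of OSM34 and TT01 had 213 of ELI3-2.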

How the results depend on the processing

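The median of the members in BT02 stayed between 0.22 and 0.44 under 18 alternatives, and it moved by more than the SD of 0.0439 among the other BT plants in 2. It was 0.22 on rlog values, which shrink single-plant deviations by construction, where the gap to other nuclear genes was 0.25 and the lowest median of 50 neighbours 0.16, and it was 0.44 when centred on the other nuclear genes. With each reference plant left out it ran between 0.37 and 0.41, the gap between 0.41 and 0.46, and the lowest median of 50 neighbours between 0.22 and 0.27. With no minimum count the lowest of these was 0.19. An alternative chosen after seeing the data, without BT05 and with chromosomes 2 and 3 and chromosome 1 before AT1G70250 as background, gave a gap of 0.40. The number of members at or below 0 was 586 of 3236 (18.1%) with no minimum, 132 (5.36%) against TT and 190 (7.71%) against all 14 plants, against 340 of 2463 (13.8%). The range of the medians over deciles of expression was 0.130 with a minimum of 10, 0.221 with none and 0.115 without BT01, against 0.0774. Of the recomputed differences of named genes, 88 moved by more than the gene's SD among the other BT plants and 1316 did not.

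The group comparisons called 0 members under every alternative run, among them Benjamini-Hochberg adjustment and the replicate block, with which 19 members had an unadjusted p under 0.05 between BT and BD, 256 between TT and BT and 47 between TT and BD (0.771%, 10.4% and 1.91% of members, and 1.73%, 9.49% and 2.93% of all genes). Deviations of same-numbered plants correlated at -0.70 to 0.57. For BT and BD, TT and BT, and TT and BD they were 0.57, 0.44 and 0.34 at number 1. At number 4 they were -0.70, 0.35 and -0.42. Whether the numbers mark plants handled together was not tested. Counts at unadjusted p under 0.05 moved by more than 1.5 times in 9 of 18 alternatives for BT and BD (9 to 148 with a plant left out, the highest without BD04), 4 of 18 for TT and BT (145 to 446) and 10 of 18 for TT and BD (19 to 127, the highest without TT04). The median of the members was reversed without BT02, at -0.0299 for BT and BD and 0.0414 for TT and BT, and without each plant in turn it ran from -0.0299 to 0.0820 and from -0.0803 (without BT05) to 0.0414. The TT minus BD difference in the share of chromosome 4 was reversed without BD03, at -0.0281 percentage points (exact permutation test, p = 0.921), and leaving out each plant gave up to 0.129. On TPM it was 0.198 percentage points (exact permutation test, p = 0.214). A single plant and counting error limit every value of BT02.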
